A study of Mus musculus with 17 samples.

Results

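Keratins and the transcription factor Trp63 separate the epithelial layers of the prostate, and 8 such genes were followed across mouse prostate tissue and prostate tumours. Krt5, Krt14, Krt15 and Trp63 were taken as basal genes, and Krt7, Krt8, Krt18 and Krt19 as luminal or simple-epithelial genes. They were chosen by name, and all 8 were found among the 13905 genes kept from the genotype files and the 39179 genes kept from the files of an inducible model. All 8 also passed the filter on low values in every comparison.

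Keratins are intermediate filament proteins that assemble only as pairs of a type I and a type II chain. In prostate epithelium, Krt5 (type II) pairs with Krt14 or Krt15 (type I) in the basal layer, and Krt8 (type II) pairs with Krt18 (type I) in the luminal layer. Trp63 encodes p63, a member of the p53 family that basal cells of stratified and glandular epithelia need, and prostate pathology reads the loss of the basal layer from p63 and basal keratin stains.

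The Ctnnb1 group held 3 prostate tumours labelled Ctnnb1pc(ex3)delta/+, from mice of about 12 months, in which 1 allele of the beta-catenin gene lacks exon 3 and so gives a protein that escapes breakdown. The combined group held 3 prostate tumours of about 6 to 8 months with the same Ctnnb1 allele and a further engineered change. The WT group held 3 wild-type prostates of 12 months. The ADT and mock groups, with 3 and 2 prostate tumours of about 15 months, shared an inducible form of the combined genotype in which an inducible Cre, CreERT2, drives the recombination, and differed in treatment. ADT usually stands for androgen deprivation therapy. Sample titles of the ADT group hold "cast", which may be short for castration, and those of the mock group hold "ctrl". The labels do not give the length of the treatment. All mice were C57BL/6. The labels do not name the driver behind "pc" and do not say that samples of a group came from separate mice, so a p-value here measures the spread between samples, which may be technical in part. The combined tumours were also younger than WT, and WT was tissue while the genotype groups were tumours, so genotype cannot be told apart from age in the combined comparison or from the presence of a tumour in either.

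Values are gene read counts that the submitters scaled per library, called scaled counts below, and they carry no sequencing depth. Axin2, a target gene of beta-catenin, ranged over 15825 to 18451 in the Ctnnb1 group, 9466 to 16457 in the combined group and 1777 to 2278 in WT. Whole-gene values do not show the loss of exon 3. The WT libraries held much RNA of seminal vesicle secretion genes, with a summed scaled count of 8 such genes from 482444 to 4714049, against 212 to 5165 in the Ctnnb1 group and 44684 to 220028 in the combined group. A list of 10 smooth muscle genes summed to 2443 to 4928 in the Ctnnb1 group, 7823 to 23316 in the combined group and 162884 to 206259 in WT. A list of 12 immune genes summed to 8610 to 17881 in the Ctnnb1 group, 11642 to 43682 in the combined group and 4212 to 4298 in WT. The part of these other cell types in the keratin results was not tested, and in bulk tissue fewer cells of a type and less RNA per cell cannot be told apart.

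The 8 genes lie on 3 chromosomes in the build GRCm38 (GENCODE M21 annotation). The type II genes form a cluster on chromosome 15, with Krt7 at chr15:101411043-101430313 (plus strand), Krt5 at chr15:101707070-101712898 (minus strand) and Krt8 at chr15:101996698-102004482 (minus strand). Krt18, a type I gene, is the exception in that cluster, at chr15:102028180-102032027 (plus strand), and only 23.7 kb separate it from its partner Krt8. The other type I genes lie on the minus strand of chromosome 11, with Krt15 at chr11:100131758-100135928, Krt19 at chr11:100140810-100148665 and Krt14 at chr11:100203162-100207548. Trp63 lies at chr16:25683763-25892102 on the plus strand. Krt15 and Krt19 are neighbours 4.9 kb apart, and their log2 changes in the Ctnnb1 comparison had opposite signs, of which only that of Krt19 passed the test.

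Promoters are shown for Krt5, a basal keratin whose levels varied with those of Trp63 within groups, and for the Krt8 and Krt18 pair, whose balance shifted. Each is the RefSeq window (build GRCm38.p6) from 250 bases before to 50 after the annotated start, read 5′ to 3′ on the gene's own strand. Windows of 5 of the 8 genes were in the table, and those of Krt14 and Krt7 lie 1518 and 1360 bases from the GENCODE start of the gene, so they are not printed. Capitals in Krt5 mark a match to the p53-family half-site, and capitals in Krt8 mark 2 overlapping matches to TATAAA on opposite strands.
Krt5, chr15:101712856-101713155, minus strand: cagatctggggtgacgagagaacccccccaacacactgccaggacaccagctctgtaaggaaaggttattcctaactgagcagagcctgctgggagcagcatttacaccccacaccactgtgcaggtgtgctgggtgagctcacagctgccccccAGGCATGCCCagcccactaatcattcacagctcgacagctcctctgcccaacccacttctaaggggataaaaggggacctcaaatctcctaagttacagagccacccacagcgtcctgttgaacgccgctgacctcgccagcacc
Krt8, chr15:102004293-102004592, minus strand: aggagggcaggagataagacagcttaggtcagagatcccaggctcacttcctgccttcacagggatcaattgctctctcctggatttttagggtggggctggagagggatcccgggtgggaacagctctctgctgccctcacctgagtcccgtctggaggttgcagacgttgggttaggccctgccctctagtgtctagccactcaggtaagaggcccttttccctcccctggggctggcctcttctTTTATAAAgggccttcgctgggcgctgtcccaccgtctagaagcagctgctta
Krt18, chr15:102027966-102028265, plus strand: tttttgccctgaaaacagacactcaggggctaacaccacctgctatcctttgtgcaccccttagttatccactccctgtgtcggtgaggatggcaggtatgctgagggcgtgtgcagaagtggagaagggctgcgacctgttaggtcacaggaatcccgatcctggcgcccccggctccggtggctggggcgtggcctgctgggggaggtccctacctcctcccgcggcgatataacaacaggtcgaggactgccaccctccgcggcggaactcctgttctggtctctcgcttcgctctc

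The half-site in Krt5 begins 95 bases before the RefSeq start and the pattern matches on both strands. Read along the window, the TATAAA matches in Krt8 begin 3 and 1 bases before the RefSeq start. That start lies 140 bases from the GENCODE start of the gene. Searched on both strands, the p53-family half-site occurs in 8.36% of 32851 RefSeq promoters of 300 bases, and TATAAA in 13.6%. CTTTGA, the core letters bound by the TCF and LEF partners of beta-catenin, occurs in 16% of them and in none of the 5 windows. Krt18 held none of these motifs. A match is a run of letters, not a shown binding site, and the lack of a match in a window says nothing of the factor.

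In wild-type prostate the luminal keratins were the most abundant of the 8 genes. Per kb of principal transcript, Krt18 averaged 14500 scaled counts, Krt19 10220 and Krt8 6342, and the ranges of these 3 did not overlap (n = 3 libraries). Krt15 averaged 2685 and Krt5 1361 per kb, with overlapping ranges, and below Krt5 came Krt7 (367.9), Krt14 (281.7) and Trp63 (187.0), each overlapping its neighbour in that order. Krt15, not Krt14, was the more abundant type I keratin of the basal set in this tissue.

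The order differed in the tumours. In the Ctnnb1 group Krt18 (17730 per kb), Krt19 (15170) and Krt8 (13700) overlapped each other. In the combined group Krt19 (26040 per kb) stood first and Krt8 (17230) second, and each overlapped the next, down to Krt18 (14330). The basal keratins and Krt7 overlapped each other in both tumour groups, from 516.3 to 949.8 per kb in the Ctnnb1 group and from 580.1 to 1166 in the combined group. Trp63 stood below all 7 keratins in both, at 45.86 and 52.87 per kb.

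**Figure D1:**
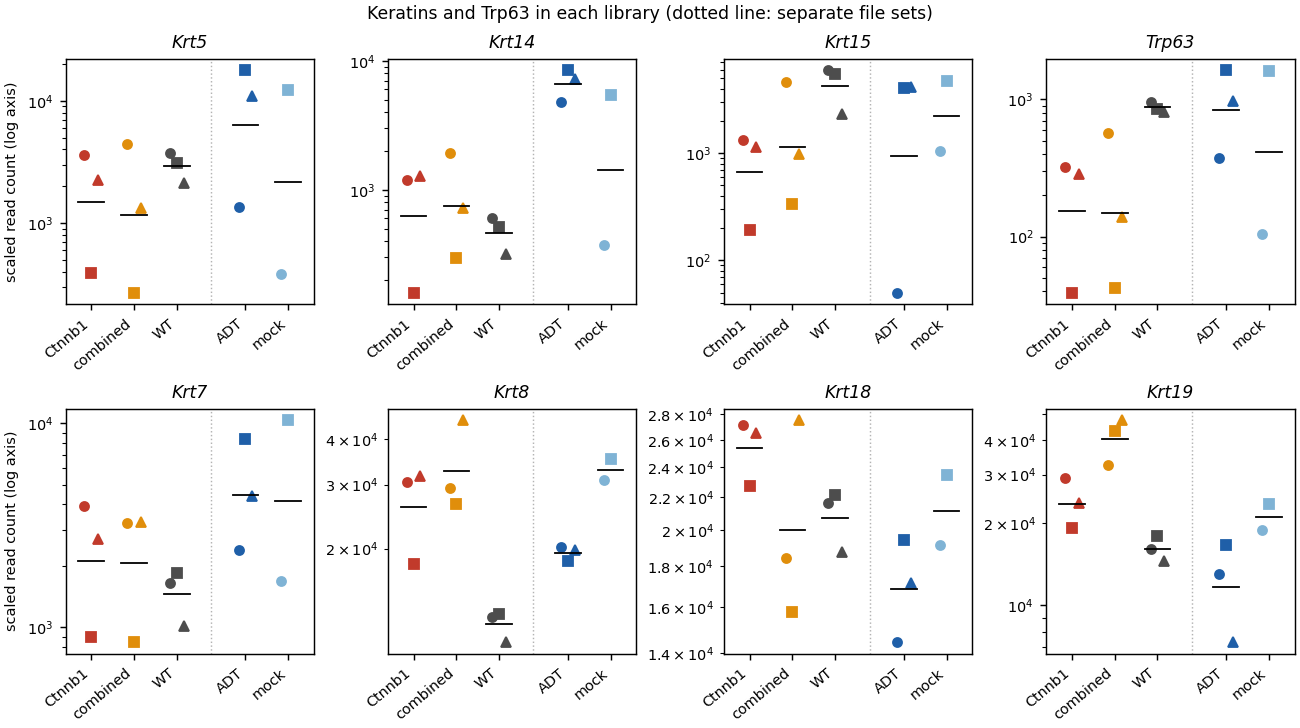
Scaled read counts of the 8 genes in each library, on log axes, for the Ctnnb1, combined and WT groups and, right of the dotted line, for the ADT and mock groups. Circles, squares and triangles are the libraries of a group in the order of their numbers, and bars are means on the log2 scale. Krt8 is higher in all 6 tumours than in WT, and the basal genes vary widely within the tumour groups.

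Krt8 and Krt19 rose in the Ctnnb1 tumours, and no member fell past the test. At an adjusted p under 0.05 (limma, moderated test with Benjamini-Hochberg adjustment), 2 of the 8 genes were called, both higher. Of all 13905 genes tested, 58.5% were called, 28.9% higher and 29.6% lower, so the members' 2 of 8 is a smaller share than that over all genes. Of these calls 49.4% were higher, and 78.9% when libraries were rescaled to equal totals, since the WT totals were larger. The ranges of 3 members lay above those of WT and the ranges of 2 lay below, while 71.5% of all genes did not overlap (35.9% above and 35.6% below). At an unadjusted p under 0.05 in limma, 2 members were lower (Krt15 and Trp63), beside 31.9% of all genes.

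In the combined tumours the same 2 genes, Krt8 and Krt19, rose and no member fell past the test. Here 57.8% of all genes were called, 28.3% higher and 29.5% lower, and 48.9% of the calls were higher, or 81.9% with equal totals. The ranges of 2 members lay above and that of 1 below WT, against 66.1% of all genes without overlap in either direction (32.1% above and 34% below). At an unadjusted p under 0.05 in limma, 1 member was lower (Trp63), beside 32.3% of all genes. Both comparisons use the same 3 WT libraries.

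**Figure D2:**
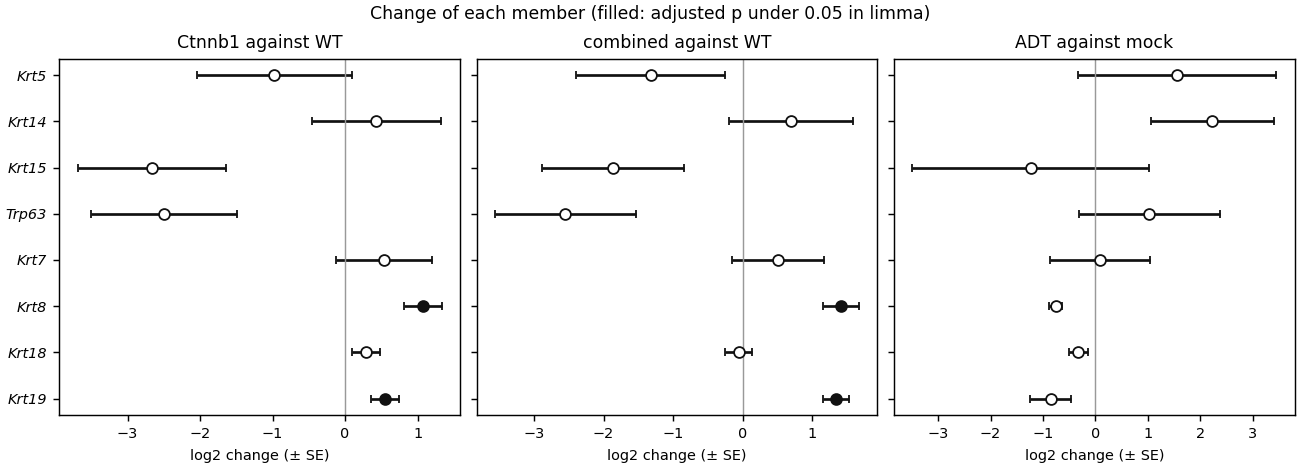
Log2 change of each gene with its moderated standard error in the 3 comparisons. Filled points are called at an adjusted p under 0.05. Krt8 and Krt19 are the filled points against WT, and no point is filled for ADT against mock. The horizontal scales differ between the panels.

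Krt8, the type II keratin of simple epithelia, had scaled counts of 30575, 18164 and 31740 in the Ctnnb1 tumours and 12951, 13250 and 11054 in WT. Every Ctnnb1 tumour was above every WT library, by a log2 change of 1.07 ± 0.26 (SE, n = 3 each) with an adjusted p of 0.00754 in limma. In the combined tumours Krt8 had 29439, 26527 and 45221, and the change from WT was 1.41 ± 0.26 with an adjusted p of 0.002 in limma. Every combined tumour, too, was above every WT library.

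Krt18, its type I partner, was not called in either comparison. It had 27127, 22741 and 26548 in the Ctnnb1 tumours and 21610, 22148 and 18772 in WT. The Ctnnb1 range lay just above that of WT, but the log2 change of 0.29 ± 0.19 did not pass the test (limma adjusted p = 0.226). In the combined tumours Krt18 had 18454, 15755 and 27552, which spans the WT range, with a log2 change of -0.06 ± 0.19 (limma adjusted p = 0.821). When libraries were rescaled to equal totals, the median of all genes moved by 0.49 in the Ctnnb1 and 0.50 in the combined comparison. Krt18 then moved by about the same amount, to 0.78 (limma adjusted p = 0.00836) and to 0.46.

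The Krt8 to Krt18 ratio within a library does not depend on how libraries are scaled. Its log2 value was 0.17, -0.32 and 0.26 in the Ctnnb1 tumours, 0.67, 0.75 and 0.71 in the combined tumours and -0.74, -0.74 and -0.76 in WT. The WT libraries were nearly identical (-0.75 ± 0.01, SD), the combined tumours were almost as tight (0.71 ± 0.04), and the Ctnnb1 tumours spread more (0.04 ± 0.31). None of the ranges of the 3 groups overlapped. Ratios are given as descriptions, without a test.

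Krt19, a type I keratin that lacks most of the tail domain and is found in ducts, had 29107, 19089 and 23518 in the Ctnnb1 tumours and 16000, 17822 and 14516 in WT. The groups did not overlap, and the log2 change was 0.55 ± 0.19 (limma adjusted p = 0.0344). This call was lost without Ctnnb1 tumour 13 or 15, or without WT library 1 or 3, where the adjusted p reached 0.115 in limma. In the combined tumours Krt19 had 32389, 43146 and 47567, with a log2 change of 1.34 ± 0.19 (limma adjusted p = 0.00056). Relative to Krt18, Krt19 was higher in the tumours, at a log2 ratio of -0.25 to 0.10 in the Ctnnb1 group, 0.79 to 1.45 in the combined group and -0.43 to -0.31 in WT.

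Krt7, a type II keratin of ducts and of urothelium, varied with the basal genes within groups. It had 3948, 900 and 2702 in the Ctnnb1 tumours, 3239, 844 and 3281 in the combined tumours and 1645, 1854 and 1020 in WT. In each tumour group 1 library lay below all WT libraries and the others lay above them. The log2 changes of 0.54 ± 0.66 in the Ctnnb1 and 0.51 ± 0.66 in the combined comparison did not pass the test (limma adjusted p = 0.501 and 0.529). Of 7 urothelial genes tested in the Ctnnb1 comparison (3 called, and 5 with equal totals), Upk2 was called higher, at 725, 608 and 538 in Ctnnb1 tumours and 145, 137 and 183 in WT, and Upk1a and Snx31 were called lower. Upk1a had 193, 167 and 125 in Ctnnb1 tumours and 4277, 3385 and 2574 in WT. Upk1b, Upk3a, Gata3 and Pparg were not called in the Ctnnb1 comparison, and in the combined comparison Pparg was called higher and Upk1a, Gata3 and Snx31 lower.

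Trp63 had 320, 39 and 288 scaled counts in the Ctnnb1 tumours and 965, 857 and 816 in WT. All 3 tumours lay below all 3 WT libraries, but the tumours differed widely among themselves and the log2 change of -2.50 ± 1.01 did not pass the test (limma adjusted p = 0.0619). In the combined tumours it had 566, 42 and 138, again all below WT, with a log2 change of -2.55 ± 1.01 (limma adjusted p = 0.0591). The decision rests on how the spread is estimated: with the 6 libraries of a comparison fitted alone, the limma adjusted p was 0.0273 in the Ctnnb1 and 0.0483 in the combined comparison. The values are for the whole gene and do not separate the p63 isoforms.

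Krt15, a type I basal keratin also known from hair follicle stem cells, followed Trp63. It had 1321, 194 and 1136 in the Ctnnb1 tumours and 5922, 5448 and 2323 in WT, without overlap and with a log2 change of -2.67 ± 1.02 (limma adjusted p = 0.0518). In the combined tumours it had 4629, 336 and 984, which overlaps WT, with a log2 change of -1.87 ± 1.02 (limma adjusted p = 0.149). Without combined tumour 10, the library with the highest basal values of its group, Krt15 was called at -2.87 (limma adjusted p = 0.0298) and Trp63 at -3.51 (limma adjusted p = 0.0148).

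Krt5, the type II keratin of basal cells, had 3619, 392 and 2249 in the Ctnnb1 tumours, 4421, 270 and 1329 in the combined tumours and 3745, 3103 and 2125 in WT. The combined tumours lay above and below the WT range, the Ctnnb1 tumours lay within or below it, and the log2 changes of -0.98 ± 1.07 in the Ctnnb1 and -1.32 ± 1.07 in the combined comparison did not pass the test (limma adjusted p = 0.45 and 0.315). Krt14, its type I partner, had 1186, 159 and 1285 in the Ctnnb1 tumours, 1939, 298 and 718 in the combined tumours and 605, 511 and 319 in WT. Its log2 changes were 0.43 ± 0.89 in the Ctnnb1 and 0.69 ± 0.89 in the combined comparison (limma adjusted p = 0.694 and 0.528), and each tumour group held values above and below all of WT.

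Taken relative to Krt14, the balance of the basal genes differed between tumours and WT. The log2 ratio of Trp63 to Krt14 was -1.89, -2.0 and -2.15 in the Ctnnb1 tumours, -1.77, -2.80 and -2.37 in the combined tumours and 0.67, 0.74 and 1.35 in WT. The ratio of Krt15 to Krt14 was 0.16, 0.29 and -0.18 in the Ctnnb1 tumours, 1.25, 0.17 and 0.45 in the combined tumours and 3.29, 3.41 and 2.86 in WT. For Krt5 to Krt14 the values were 1.61, 1.30 and 0.81 in the Ctnnb1 tumours, 1.19, -0.14 and 0.89 in the combined tumours and 2.63, 2.60 and 2.73 in WT. In all 3 ratios every tumour lay below every WT library, including the tumours in which the basal genes were high. Relative to Krt14, the other basal genes were thus lower in all tumours. The 3 ratios share Krt14 and are not independent. The log2 ratio of Krt15 to Krt5 was -1.45 to -0.98 in the Ctnnb1 tumours, -0.43 to 0.31 in the combined tumours and 0.13 to 0.81 in WT. There the combined tumours overlapped WT. That of Trp63 to Krt5 was -3.50 to -2.96 in the Ctnnb1 tumours, -3.26 to -2.66 in the combined tumours and -1.96 to -1.38 in WT.

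**Figure D3:**
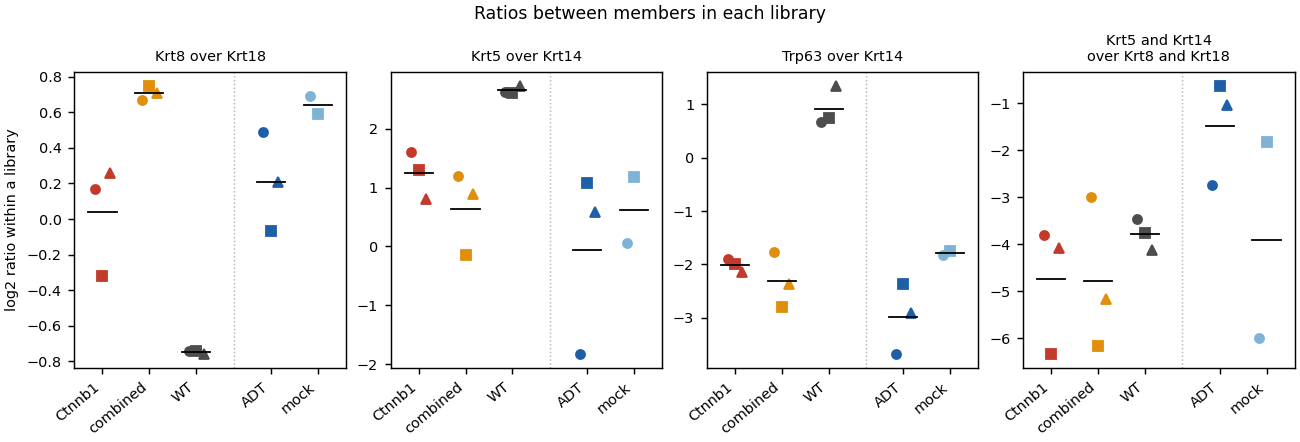
Log2 ratios between members within each library, for the Ctnnb1, combined and WT groups and, right of the dotted line, for the ADT and mock groups. Points are libraries and bars are means. Krt8 over Krt18 is above WT and Krt5 over Krt14 and Trp63 over Krt14 are below WT in all 6 tumours, and the vertical scales differ between the panels.

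As shares of the 7 keratins per kb of transcript, the basal keratins Krt5, Krt14 and Krt15 made up 5.47%, 1.02% and 4.65% in the Ctnnb1 tumours, 10.67%, 0.94% and 2.15% in the combined tumours and 14.69%, 12.66% and 8.22% in WT. The Ctnnb1 range lay below that of WT, and combined tumour 10 lay within the WT range. Most of the rest was Krt8, Krt18 and Krt19. Krt18 took 20.85% to 25.61% in the combined tumours and 39.66% to 42.57% in WT.

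**Figure D4:**
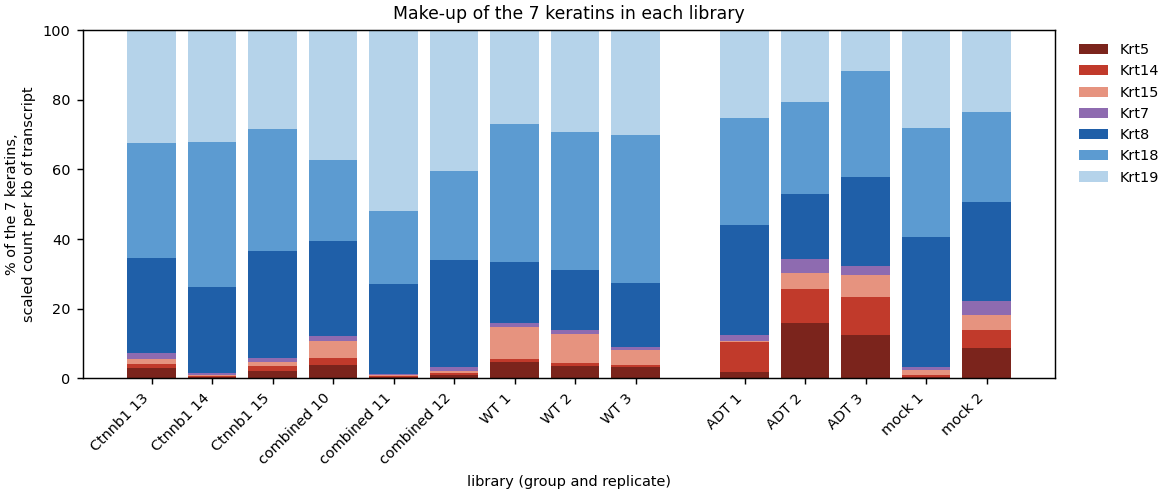
Share of each of the 7 keratins in their sum, from scaled counts per kb of principal transcript, in each library. Krt5, Krt14 and Krt15 (reds) sum to 1.02% to 5.47% in the Ctnnb1 group, 0.94% to 10.67% in the combined group and 8.22% to 14.69% in WT, and to 10.60% to 30.28% in ADT and 2.38% and 18.15% in mock tumours.

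Within groups, the basal genes and Krt7 went up and down together. In Ctnnb1 tumour 14, Krt5, Krt14, Krt15 and Trp63 deviated from the mean of the group by -1.97 to -1.77 on the log2 scale, and in combined tumour 11 by -2.11 to -1.32. Over the 9 libraries, the deviations of Krt5 from its group means correlated with those of Trp63 at r = 0.98, of Krt15 at 0.98, of Krt14 at 0.96 and of Krt7 at 0.93. With Krt8 the value was 0.60, with Krt18 0.47 and with Krt19 0.12, and Krt7 correlated with Krt8 at 0.82. Such correlations describe 9 libraries in 3 groups that share each library's tissue make-up and scaling.

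**Figure D5:**
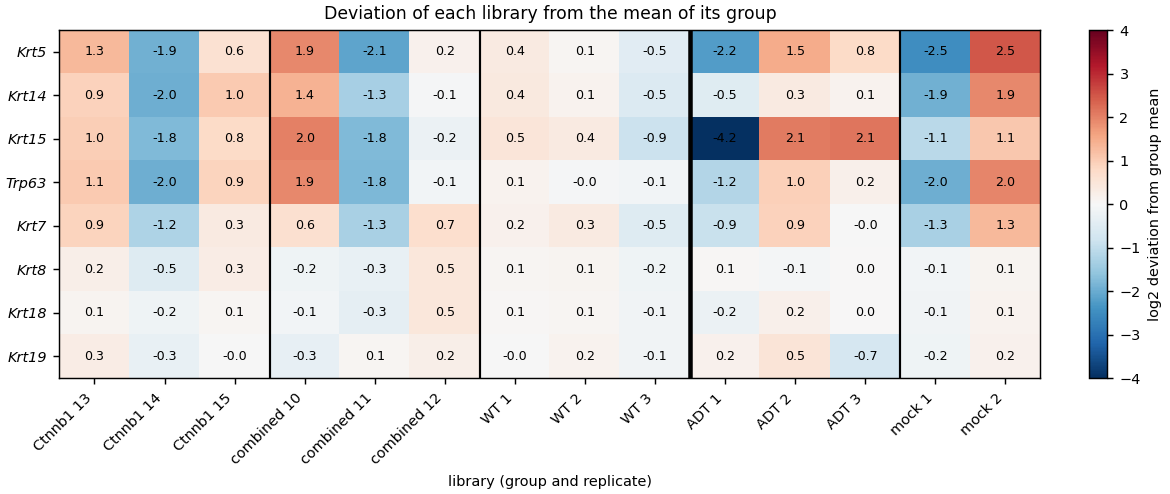
Log2 deviation of each gene in each library from the mean of its group, with blue below and red above. In Ctnnb1 tumour 14, combined tumour 11, ADT tumour 1 and mock tumour 1 the 4 basal genes and Krt7 are all below their group mean, while Krt8, Krt18 and Krt19 stay within 0.67 of theirs in all libraries.

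Across the same 9 libraries, the genes whose levels ran most like Krt5 were Aqp3 (r = 0.955), an aquaporin, Trim29 (0.948), Tns4 (0.919) and Trp63 (0.914). For Trp63 they were Shh (0.972), the Hedgehog ligand, Krt15 (0.958), Bai1 (0.951) and Aqp3 (0.948). Shh had 11 to 72 scaled counts in the Ctnnb1 tumours, 8 to 75 in the combined tumours and 210 to 267 in WT. Among those most like Krt8 were Apobr (0.992), H2afy (0.985) and Psme2 (0.983), and those most like Krt19 were Lasp1 (0.987), Kirrel3 (0.983), Dbnl (0.983) and Pgk1 (0.982). Krt18 was not among them: its level correlated with that of Krt8 at r = 0.389 over the 9 libraries, while the deviations of the pair from their group means correlated at 0.87.

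Of 16 other basal genes tested in the Ctnnb1 comparison, 5 were called higher and 6 lower, near the shares over all genes (28.9% higher and 29.6% lower), and the counts were the same in the combined comparison. Itga6, an integrin subunit that anchors basal cells, had 13592, 15280 and 16981 in the Ctnnb1 tumours and 3909, 3948 and 3235 in WT, a log2 change of 2.05 ± 0.25 (limma adjusted p = 0.000261). Fermt1, a kindlin that activates integrins, was higher by 1.34 ± 0.15 (limma adjusted p = 0.000164). Cav1, a caveolin also abundant in smooth muscle, was lower by a log2 change of -3.13 ± 0.33 (limma adjusted p = 0.000131), and Sncg by -3.15 ± 0.30 (limma adjusted p = 8.71e-05). The median log2 change of the 16 genes was -0.96 in the Ctnnb1 and 0.11 in the combined comparison, beside 0 and -0.01 over all genes.

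Other keratins are given by their values only. Of the fixed genes, 9 of 24 other type I and 12 of 23 other type II keratins were in the genotype files, from which low genes had been removed. Of those 9 and 12, 2 type I and 6 type II genes were listed at 0 in all WT libraries and others lay close to 0, so such a gene can only have been kept through tumours where it was high, and no count of calls over these lists is given. Summed over the 9 type I genes, the scaled count was 4757 to 9752 in the Ctnnb1 tumours, 2998 to 6185 in the combined tumours and 1201 to 1400 in WT, and most of the WT sum was Krt23. Krt23 had 6339, 4128 and 5483 in the Ctnnb1 tumours, 2215, 2595 and 4244 in the combined tumours and 1213, 1264 and 1070 in WT, with log2 changes of 2.15 (limma adjusted p = 0.000189) in the Ctnnb1 and 1.30 (limma adjusted p = 0.00222) in the combined comparison. The type II sums overlapped, at 1578 to 6876 in the Ctnnb1 tumours, 1106 to 5268 in the combined tumours and 823 to 2387 in WT. Most of the WT type II sum was Krt4, at 1970, 1960 and 602. Krt4 had 1211, 198 and 1101 in the Ctnnb1 tumours and 2383, 578 and 802 in the combined tumours. Krt6a, a type II keratin of stressed and stratifying epithelium, had 1175, 342 and 1063 in the Ctnnb1 tumours, 1155, 158 and 987 in the combined tumours and 4, 4 and 6 in WT. Krt73, a keratin known from hair follicles, had 562, 183 and 1034 in the Ctnnb1 tumours, 137, 7 and 127 in the combined tumours and was listed at 0 in WT. Keratins of a type share sequence, and how reads that map to several were counted is not given in the sources used here, so close copies such as Krt6a and Krt6b are uncertain.

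Of 13 genes tested from a list of squamous keratinisation, 9 were called higher in the Ctnnb1 and 10 in the combined comparison, with none lower. Over all genes, 28.9% were called higher in the Ctnnb1 and 28.3% in the combined comparison. With 12 libraries fitted together these counts were 5 and 6, and the count in the combined comparison was also 6 without combined tumour 10 or WT library 3. Several of these genes were near 0 in WT, such as Krt16 (1, 0 and 0) and Krtdap (1, 1 and 0), and carry the same limit as the keratins. They can only have been kept through tumours where they were high and could hardly be called lower. The counts are therefore not read as a result about the list. The list shares Krt1, Krt6a, Krt10, Krt13 and Krt16 with the keratins. Sprr1a, a cornified envelope protein, was well above 0 in WT: it had 1672, 915 and 1546 in the Ctnnb1 tumours, 2931, 3684 and 2579 in the combined tumours and 328, 445 and 298 in WT. Its log2 changes were 1.92 (limma adjusted p = 0.000393) in the Ctnnb1 and 3.10 (limma adjusted p = 4.23e-05) in the combined comparison. Tgm3, a transglutaminase that cross-links keratins, had 869, 519 and 704 in the Ctnnb1 tumours and 3, 1 and 4 in WT.

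Of 14 genes tested from a list of desmosomal, hemidesmosomal and keratin-associated proteins, 9 were called higher and 2 lower in the Ctnnb1 comparison, and 6 higher and 2 lower in the combined comparison. Over all genes, 28.9% were called higher and 29.6% lower in the Ctnnb1 comparison, and 28.3% and 29.5% in the combined comparison. The total in the combined comparison was near the 57.8% called over all genes. The total of 8 calls in the combined comparison was 5 without combined tumour 12, 4 without WT library 3 and 13 with equal totals. Dsc2, a desmosomal cadherin, had 4526, 3242 and 4118 in the Ctnnb1 tumours, 3255, 3844 and 4416 in the combined tumours and 1111, 1411 and 1230 in WT. Dsg2 and the plakin Dsp were higher as well, by log2 changes of 1.03 ± 0.16 (limma adjusted p = 0.000779) and 0.96 ± 0.18 (limma adjusted p = 0.00247) in the Ctnnb1 comparison. Krtcap2, a subunit of the oligosaccharyltransferase that carries a keratinocyte name and is no linker of keratins, was lower, by -1.48 ± 0.09 (limma adjusted p = 1.66e-05), and so was the hemidesmosomal plakin Dst, by -1.13 ± 0.28 (limma adjusted p = 0.00862).

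Of 15 general luminal epithelial genes tested, 5 were called higher and 3 lower in the Ctnnb1 comparison, and 5 higher and 6 lower in the combined comparison. Among 10 genes used as luminal progenitor markers, 4 rose and 2 fell in each comparison. The totals called in the Ctnnb1 comparison were near the 58.5% over all genes for both lists. Ly6d had 8062, 3083 and 5173 in the Ctnnb1 tumours, 6443, 9479 and 10624 in the combined tumours and 653, 422 and 297 in WT. Relative to the mean of Epcam and Cdh1 within a library, Krt8 was higher in the tumours, at a log2 ratio of 1.02 to 1.52 in the Ctnnb1 group, 1.11 to 1.70 in the combined group and -0.20 to 0.08 in WT.

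Of 14 genes tested from a list of p53-family members and known partners or regulators of p63, 5 were called higher and 1 lower in the Ctnnb1 comparison, and 4 higher and 4 lower in the combined comparison. Neither total was above the share called over all genes, 58.5% in the Ctnnb1 and 57.8% in the combined comparison. Ppp1r13l, which encodes an inhibitor that binds p53-family proteins, had 1861, 1585 and 1490 in the Ctnnb1 tumours and 640, 658 and 640 in WT, a log2 change of 1.34 ± 0.14 (limma adjusted p = 0.000132).

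In the inducible model no member passed the test between ADT and mock tumours, and 2 of 23289 genes did (0.00859%). At an unadjusted p under 0.05 in limma, 1 of the 8 genes (Krt8) stood against 16.2% of all genes, and 2 of 8 lay below mock without overlap against 16.8% of all genes (33.2% in either direction). The 12 prostate identity genes tested held none that was called, although Pbsn, an androgen-regulated secretory gene, lay between 0 and 5 in ADT and between 2475 and 2533 in mock tumours.

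Krt8 had 20239, 18478 and 19814 scaled counts in ADT tumours and 30841 and 35305 in mock tumours. The groups did not overlap and the replicates of each lay close together, with a log2 difference of -0.76 ± 0.12 (SE, limma adjusted p = 0.128). Krt19 had 13028, 16549 and 7308 in ADT tumours and 18801 and 23511 in mock tumours, without overlap, at -0.85 ± 0.39 (limma adjusted p = 0.377). Krt18 had 14439, 19412 and 17147 in ADT tumours and 19159 and 23474 in mock tumours, at -0.33 ± 0.18 (limma adjusted p = 0.454), and ADT tumour 2 lay within the mock range. Epcam and Cdh1 had log2 differences of -1.78 and -1.56 (limma adjusted p = 0.187 and 0.181). The log2 mean of Epcam and Cdh1 within a library was 11.79 to 12.86 in ADT tumours and 13.76 and 13.91 in mock tumours. A gene that fell less therefore comes out higher relative to it. Relative to that mean the order turned round: the log2 ratio of Krt8 was 1.32 to 2.49 in ADT tumours and 1.15 and 1.19 in mock tumours. That of Krt18 was 1.39 to 2.28 in ADT tumours and 0.46 and 0.60 in mock tumours, and that of Krt19 1.05 to 1.81 in ADT tumours and 0.43 and 0.61 in mock tumours, all 3 without overlap. The ratio of the basal gene Krt14 was also higher without overlap, at 0.19 to 1.04 in ADT tumours and -5.22 and -1.52 in mock tumours. Those of Krt5, Krt15, Trp63 and Krt7 overlapped. All 15 general luminal genes had a log2 difference below 0, with a median of -1.56 beside -0.02 over all genes, and none was called.

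Krt14 had 4796, 8458 and 7265 in ADT tumours and 372 and 5391 in mock tumours, with ADT tumour 1 below mock tumour 2 (2.23 ± 1.18, limma adjusted p = 0.431). Krt5 had 1344, 17743 and 10835 in ADT tumours and 384 and 12184 in mock tumours (1.56 ± 1.89, limma adjusted p = 0.732). Trp63 had 373, 1631 and 968 in ADT tumours and 105 and 1602 in mock tumours (1.03 ± 1.34, limma adjusted p = 0.752). These 3 basal genes were low in mock tumour 1 and higher in mock tumour 2, and mock tumour 2 lay within the ADT range for each. Krt15 had 50, 4002 and 4132 in ADT tumours and 1046 and 4716 in mock tumours (-1.23 ± 2.26, limma adjusted p = 0.826), and ADT tumour 1 held hardly any of it. Krt7 had 2404, 8352 and 4402 in ADT tumours and 1689 and 10393 in mock tumours (0.09 ± 0.95, limma adjusted p = 0.973).

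ADT tumour 1 had an uneven basal set. Its log2 ratio of Krt5 to Krt14 was -1.83, against 1.07 and 0.58 in the other ADT tumours and 0.05 and 1.18 in mock tumours. Its ratio of Krt15 to Krt14 was -6.56, against -1.08 and -0.81 in the other ADT tumours and 1.49 and -0.19 in mock tumours. The ratio of Trp63 to Krt14 was -3.68, -2.37 and -2.91 in ADT tumours and -1.82 and -1.75 in mock tumours, without overlap. For Krt8 to Krt18 it was 0.49, -0.07 and 0.21 in ADT tumours and 0.69 and 0.59 in mock tumours, again without overlap. Per kb of transcript, Krt18 (11830) and Krt8 (9964) had the highest means in ADT tumours, and Krt8 (16890) and Krt18 (14830) in mock tumours, with overlapping ranges in each group. Basal keratins made up 10.60%, 30.28% and 29.54% of the 7 keratins per kb in ADT tumours and 2.38% and 18.15% in mock tumours.

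No gene of the other lists was called between ADT and mock tumours. Lamb3, a laminin chain of the basal lamina, had 15618, 10362 and 18226 in ADT tumours and 843 and 3057 in mock tumours, a log2 difference of 3.16 ± 0.61 (limma adjusted p = 0.15). Fermt1 had a difference of -2.05 ± 0.51 (limma adjusted p = 0.188), opposite in sign to that of Lamb3. Cldn3, a tight junction claudin of luminal epithelium, had 652, 690 and 424 in ADT tumours and 3629 and 3410 in mock tumours (-2.61 ± 0.26, limma adjusted p = 0.0804). The other type I keratins summed to 18679, 10123 and 8269 in ADT tumours and 1844 and 7444 in mock tumours. In ADT tumour 1, 13236 of this sum was Krt42. That gene had 222 and 727 in the other ADT tumours and 0 and 236 in mock tumours. Of the type I keratins, 5 of 21 tested lay above mock without overlap, against 16.4% of all genes. Krt12, Krt28 and Krt40 were at 0 in mock tumours, so they passed the filter through ADT tumours only and could not lie below mock. Krt28 and Krt40 are among the 5, so that count is not read as a result. The other type II keratins summed to 5658, 9795 and 16421 in ADT tumours and 1132 and 10283 in mock tumours, and 0 of 20 tested lay above mock without overlap. Of these genes 19 of 21 and 19 of 20 had a log2 difference above 0, beside a median of -0.02 over all genes. The signs of Krt12, Krt28 and Krt40 came with the filter, and other genes lay near 0 in mock tumours. Neither count is therefore read as a result. Mock tumour 1 was the lowest library in both sums. The 5 libraries also differed in other cell types: the immune list summed to 13539 to 28418 in ADT tumours and 27687 and 84387 in mock tumours, and the fibroblast list to 57446 to 365574 in ADT tumours and 97519 and 500396 in mock tumours. Their part was not tested.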

How the data were processed

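RNA from frozen prostate tissue or tumours (integrity number above 7.3) gave paired 90-nt reads from a HiSeq 2000 (6 Gb or more per sample), per the labels' protocols. Per the submitters' processing notes, the build was GRCm38.p3 and the tools were DESeq2 1.14.1, HTSeq 0.6.0, TopHat2 2.1.0 and FastQC 0.11.4, beside Bowtie2 2.2.6.0 and R 3.2.3. Their settings, strandedness included, are not given in the sources used here. The deposited values are a score: read counts per gene after division by the size factor of the library, rounded by the authors, as judged from the values (median ratios of 0.981 to 1.005 in the sets used). Raw counts were not used here, so depth per gene is unknown and no counting interval is given. The design had named a count test for raw counts and limma otherwise, so limma was used.

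The files of the Ctnnb1, combined and WT groups listed 15195 features. Of these, 631 without an Entrez number, 270 rows that share one and 389 rows that repeat another gene's values were left out, which kept 13905. The lowest mean was 15.6, so low genes had been removed before deposit. The ADT and mock files listed 42847 features, and 3668 rows with a repeated identifier were left out. The 2 sets were tested only within themselves. A further genotype group of 3 libraries enters only a single alternative fit and is not reported here, and neither are the identity and the effect of the further engineered change.

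Values were taken as log2(value + 1). Genes with a value of at least 1 in 3 of 9 or 2 of 5 libraries were tested with limma 3.58.1 in R 4.3.3 (trend in the prior variance, group as the only factor), with p adjusted by Benjamini-Hochberg over all genes tested. Called means an adjusted p under 0.05. Fold changes on this scale understate those of low genes. The code was tested on simulated data. Levels per kb use the longest transcript that GENCODE M21 tags as principal, and the promoters are RefSeq's. Python 3.11.15, matplotlib 3.10.9 and pandas 2.3.3 made the tables and plots. Annotated genes of the opposite strand overlap Krt5, Krt7, Krt8 and Trp63, and a gene of the same strand overlaps Trp63; both that overlap Trp63 were listed at 0 in the ADT and mock files.

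The 8 genes and the 18 gene lists were chosen with earlier results of these data known. From each list up to 4 genes with the smallest p were named (of the keratins up to 6), with all 7 urothelial genes measured and the 4 genes most like Krt5, Trp63, Krt8 and Krt19; some genes that this rule selects are not reported here. Genes picked after their values were seen are Dsp, Dst, Axin2 and Pbsn. The ratios of Trp63 and Krt15 to Krt14 and to Krt5, and of Krt19 to Krt18, were also picked in this way. Alternatives were other pseudocounts, filters, scalings and variance models, other sets of libraries, each library left out, and a replicate block.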

Additional observations from a re-analysis of the deposited data

How the results depend on the processing

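Krt8 was called higher in both genotype comparisons under each of the 10 other settings and without each library, and Krt19 likewise in the combined comparison. The Ctnnb1 comparison called 2 members, 5 with only its 6 libraries fitted (Krt15, Trp63 and Krt18 added) and 1 to 2 without single libraries. The combined comparison called 2, and 2 to 4 without single libraries, with 4 without combined tumour 10. With 12 libraries fitted together, Krt15 and Trp63 were called lower in the Ctnnb1 comparison (limma adjusted p = 0.0324 and 0.0418), Krt19 was not (0.112) and Trp63 was called in the combined comparison (0.0392). The log2 change of Krt18 in the combined comparison turned to 0.46 with equal totals, to 0.02 with the 100 highest genes left out of the totals, and ran from -0.29 to 0.12 without single libraries. That of Krt14 in the Ctnnb1 comparison ran from -0.09 to 1.42.

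Between ADT and mock tumours no member was called under any setting run. The 2 calls over all genes became 5 with a pseudocount of 10, 172 without a filter, 60 with a mean of at least 50, 44 with equal totals, 39 with equal totals without the 100 highest genes, 29 with a robust prior and 0 without the trend, and 0 without each library (0 to 0). Without single libraries, Krt5 ran from -0.94 to 4.05, Trp63 from -0.93 to 2.99, Krt7 from -1.22 to 1.40 and Krt15 from -2.32 to 0.87; the lone mock tumour left in such a fit is assumed to vary like the ADT tumours. Titles of both groups carry the numbers 1 and 2, but no label says what a number shares. With the replicate block 0 genes were called. Deviations from group means of same-numbered tumours correlated at 0.27 and 0.12 over 14520 genes, and those of ADT tumour 3 and mock tumour 2 at 0.19. The deviations of the 2 mock tumours mirror each other, so these values cannot settle a pairing. The cause of these shifts was not tested, and the unknown depth limits what low values can show.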

Other observations

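Marker lists of other cell types moved in both genotype comparisons (limma, adjusted p under 0.05). All 10 smooth muscle genes and 8 of 9 skeletal muscle genes were called lower in each. The skeletal muscle count was 2 without Ctnnb1 tumour 13 or 14 or WT library 1 or 2 in the Ctnnb1 comparison, and 2 to 4 without combined tumour 11 or 12 or WT library 1 or 2 in the combined comparison. Of 12 immune genes, 9 were called higher in the Ctnnb1 and 11 in the combined comparison, with none lower, and the Ctnnb1 count was 4 or 5 without Ctnnb1 tumour 13 or 15 or any 1 WT library. Of 10 fibroblast genes, 2 were called lower in the Ctnnb1 comparison and 5 higher in the combined comparison. The fibroblast count was 1 without Ctnnb1 tumour 13 or 15 or WT library 1 or 3 in the Ctnnb1 comparison, and in the combined comparison 8 without combined tumour 12 and 1 or 2 without any 1 of the other libraries. Of 10 endothelial genes, 2 were called higher and 1 lower in the Ctnnb1 comparison (6 called with equal totals) and 7 higher in the combined comparison (4 called with 12 libraries fitted together). All 8 seminal vesicle genes were called lower in the Ctnnb1 and 2 in the combined comparison, where 0 or 1 were called without any 1 library. Of 7 neuroendocrine genes, 7 were called lower in the Ctnnb1 and 4 in the combined comparison. Of 3 mesothelial genes, 1 was called higher and 2 lower in the Ctnnb1 comparison, and 1 higher in the combined comparison. Of 12 prostate luminal identity genes, 2 were called higher and 7 lower in the Ctnnb1 comparison, and 1 higher and 7 lower in the combined comparison. Over all genes the called share was 58.5% in the Ctnnb1 comparison (28.9% higher and 29.6% lower). It was 57.8% in the combined comparison (28.3% higher and 29.5% lower). In the ADT comparison none of these genes was called, and 8 of the 12 identity genes had an unadjusted p under 0.05, all lower in ADT tumours. The share of all genes at an unadjusted p under 0.05 in limma was 16.2% there, in either direction.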
